A study of Mus musculus with 10 samples.

Results

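The p53 pathway genes described here are 31 listed mouse genes that encode p53, its regulators and its known transcriptional targets. Each gene was read through 1 probe set, that of highest mean across the 10 arrays, and was kept where at least 1 group mean reached 4 on the log2 scale. By this rule 29 of the 31 genes were kept, among 10621 genes tested in all, and Trp53 and Gdf15 were not analysed here. The choice of probe set used its level and not its difference between groups. The list of genes itself was chosen with earlier results of these data known, which limits how its shares compare with those of all genes. All 29 genes with a probe set passed the filter, with group means from 4.39 to 14.6.

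The RNA came from fibroblasts of mouse embryos in culture and was read on Affymetrix arrays in 5 groups of 2 arrays each. A total of 6 arrays were titled CDKO, cells whose gene for Dicer, the nuclease that makes mature microRNAs, can be deleted conditionally. These cells were untreated or had received 4-hydroxytamoxifen at 1 µM or 5 µM for 4 days. The other 4 arrays were titled WT (wild type), and those cells were untreated or had received 5 µM. The source names say tamoxifen, a compound usually used to activate a Cre recombinase fused to an estrogen receptor domain, but the driver of the recombinase is not given in the labels. Nor is it given whether the replicates were separate cultures, so p-values measure the spread between these arrays, which may be technical. The sample description names a conditional Dicer knockout for all 10 arrays, and the titles were followed for the 4 WT arrays.

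The p53 protein is a transcription factor held at a low level by the ubiquitin ligase Mdm2 and released after DNA damage, oncogene activity and other stress. It binds pairs of a short half-site in DNA and raises genes that stop the cell cycle, repair DNA, restrain growth or start cell death. Some of its targets, such as Mdm2 and Ppm1d, act back on p53 itself. In cultured embryonic fibroblasts the pathway is known for its part in the growth arrest of late passages.

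Promoter sequence from 250 bases before to 50 bases after the transcription start was matched by symbol in RefSeq (GRCm38.p6) for 22 of the 29 genes, with 30 promoters. The p53 consensus half-site, a motif of 10 bases that is its own reverse complement so that both strands give the same matches, was found in promoters of 8 of these 22 genes (36.4%). Over all promoters of the same length, 9.55% of 27025 genes held it. Counted by promoter, the shares were 9 of 30 (30%) among the p53 pathway genes and 8.36% of 32851 in all. The Aen site lies in overlapping promoters of that gene and was counted in each. Known p53 targets were listed as such, so a higher share than over all genes is no independent result. These are descriptions of letters in the window, not of binding. Apart from those printed here, matches were found in Aen, Ppm1d and Sesn1 and once more in Rps27l. The sequences printed are from Mdm2, the central regulator, from Ccng1, Ei24 and Polk, whose levels parted the lines without overlap, and from Rps27l, where the neighbouring bases come close to a full site. Of the other members whose levels parted the lines, Apaf1 and Eda2r held no half-site, and Tnfrsf10b and Zmat3 had no promoter matched. Each sequence is written 5′ to 3′ on the strand of the gene with the half-site in capitals and 10 bases on each side.
Mdm2, chr10:117710925-117710954, minus strand: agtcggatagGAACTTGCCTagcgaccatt
Ccng1, chr11:40755452-40755481, minus strand: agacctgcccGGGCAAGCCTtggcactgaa
Ei24, chr9:36797325-36797354, minus strand: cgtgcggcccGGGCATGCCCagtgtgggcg
Polk, chr13:96519399-96519428, minus strand: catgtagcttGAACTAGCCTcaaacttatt
Rps27l, chr9:66946296-66946325, plus strand: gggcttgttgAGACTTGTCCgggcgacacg
The 10 bases before the half-site differ from the consensus at 1 base in Ccng1 and at 1 base in the Rps27l site shown. In Mdm2, Ei24 and Polk the neighbouring bases on either side differ at 3 to 6 bases.

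Some arrays stood apart in ways that touch the results. The control for 18S ribosomal RNA was raised in 3 arrays, to 11.6 and 11.2 in untreated WT cells and to 10.2 in replicate 2 of CDKO at 1 µM, while the other 7 read 5.21 to 8.44, and the Gapdh control's 3′ signal exceeded its 5′ signal by 0.67 to 1.58 in those 3 arrays against -0.31 to 0.07 elsewhere. The hybridisation spike-ins were in the lower of 2 classes in 4 CDKO arrays and in no WT array. Replicates scattered more in CDKO cells, where the median SD of the members was 0.27 to 0.35 per group, than in WT cells (0.05 and 0.07). CDKO replicates also differed in marker medians, each gene taken against its mean over the 10 arrays. The macrophage and leukocyte median was 0.04 and 0.76 in replicate 1 of untreated and 5 µM CDKO. It was -0.948 to -1.455 in the 4 CDKO arrays of the lower spike-in class. The mitosis median was 0.54 and -0.62 in untreated CDKO replicates and -0.62 and 0.865 at 1 µM. Their part in the spread was not tested. Fibroblast markers were high (12 or 13 of 13 at 4 or more in every group), and none of 5 endothelial markers reached 4. Of 14 macrophage and leukocyte markers 12 or 13 reached 4 in every group, with medians of the group means from 6.36 to 7.79 in CDKO and 8.53 to 9.05 in WT cells. Dicer1 has 2 probe sets, whose place relative to the deleted part is not given, so they do not check the labels. The first read 7.09 and 5.99 in untreated CDKO cells, 5.40 and 8.30 at 1 µM, 5.83 and 5.78 at 5 µM, 8.97 and 9.10 in untreated WT cells and 7.64 and 7.19 in treated WT cells. The second read 6.33 and 5.93, 6.10 and 6.55, 5.90 and 5.49, 7.31 and 7.16, and 5.90 and 5.94 in the same order. In both, replicate 2 at 1 µM, 1 of the arrays with raised 18S, was the highest CDKO array and lay above both treated WT arrays.

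**Figure D1:**
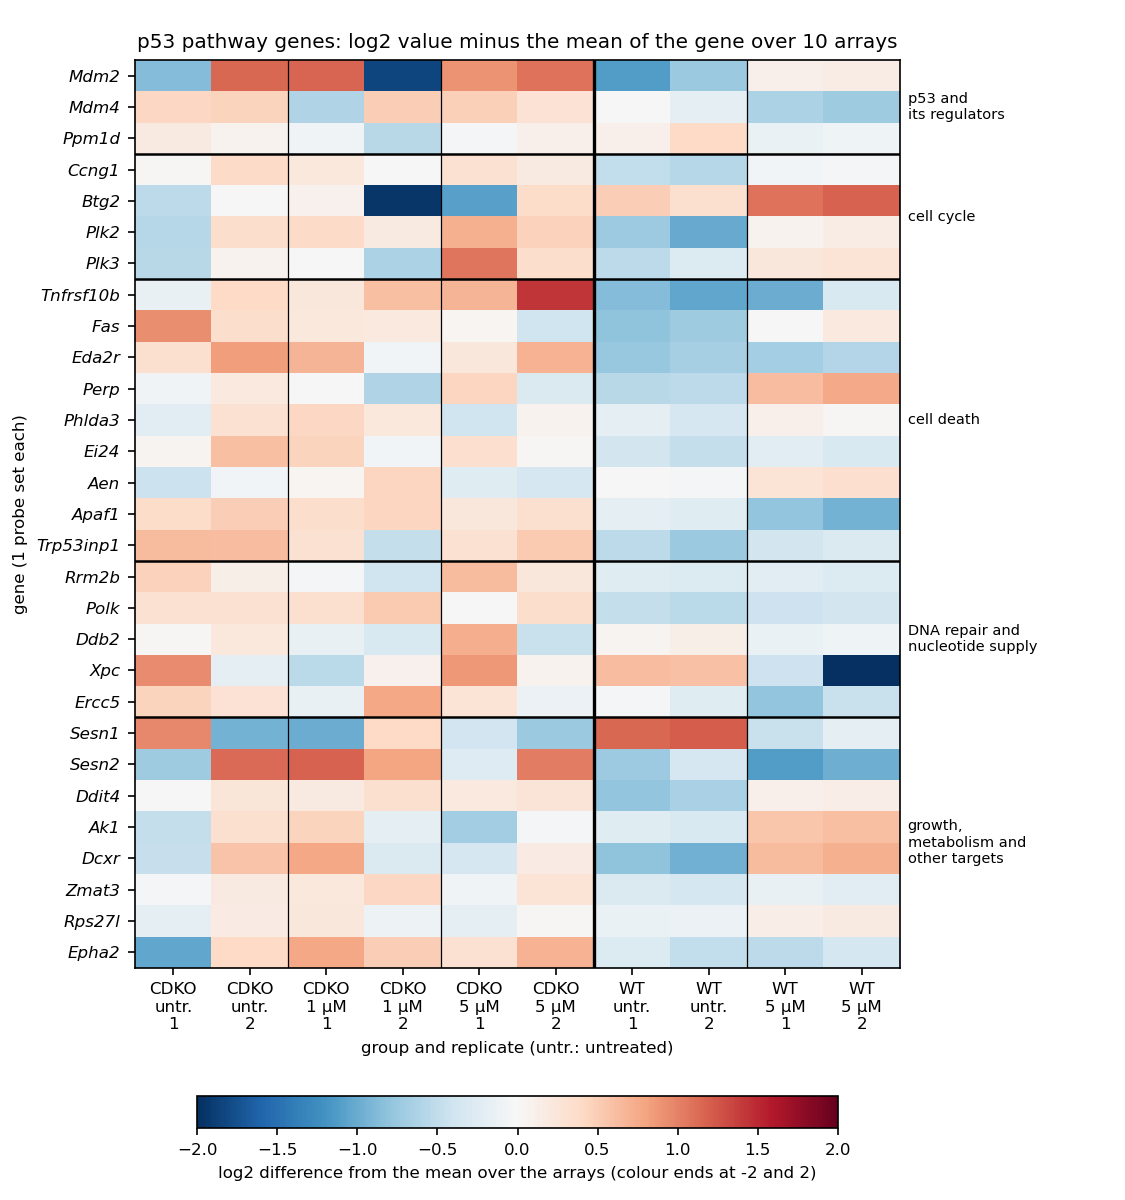
Log2 value of each of the 29 p53 pathway genes (rows, ordered by role) in each of the 10 arrays (columns, by group and replicate), as the difference from the gene's mean over the arrays, with red above and blue below. The CDKO arrays of Apaf1, Eda2r and Polk lie above all WT arrays, while Mdm2, Btg2 and Sesn2 differ widely between CDKO replicates, as in the 12.40 and 9.39 of Mdm2 at 1 µM.

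The clearest pattern among the p53 pathway genes lay between the lines and was present without drug. In untreated cells 3 of 29 members were higher in CDKO than in WT and none was lower, where 1.94% of all genes tested were called higher and 2.6% lower (limma, adjusted p under 0.05 over 20681 probe sets). They were Fas, a death receptor, Trp53inp1, a nuclear protein that acts with p53 in cell death, and Ddit4, an inhibitor of mTOR signalling. None of these 3 passed between the lines at 5 µM. The differences there were -0.28 ± 0.26 for Fas, 0.75 ± 0.28 for Trp53inp1 and 0.11 ± 0.19 for Ddit4. In untreated cells the difference was positive for 24 of 29 members, with a median of 0.55 against -0.05 over all genes. Beside this, the untreated WT arrays carried the raised 18S control. In untreated CDKO cells 2 of 9 mitosis genes and, of the marker lists, 2 of 4 epithelial, 2 of 3 skeletal muscle and 2 of 3 adipocyte genes were called lower. Macrophage and leukocyte markers were negative for 12 of 13 (median -1.58), with 7 at an unadjusted p under 0.05 and none called. Their part in the result was not tested. With the 18S control as a covariate none of the members was called, and over the 12 alternatives apart from left-out arrays the count ran from 0 to 5. Both untreated WT arrays had the highest 18S values, so the covariate can hardly separate the control from that group. Leaving out 1 array gave 1 call without either untreated CDKO array, 7 without either CDKO 1 µM array, 2 without either CDKO 5 µM array and 0 whenever a WT array was left out. On bulk arrays, a change in the share of cells that express a gene and a change in RNA per cell cannot be told apart.

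At 5 µM, 1 of 29 members was higher in CDKO than in WT cells, Apaf1, which forms the apoptosome that activates caspases, and none was lower, against 0.866% of all genes called higher and 0.584% lower. The median difference was 0.45 over the members and 0.04 over all genes, and 20 of 29 differences were positive. The Apaf1 call was lost when any 1 WT array or either CDKO 5 µM array was left out, which gave 0 calls, and there were 2 calls without either CDKO 1 µM array. All 13 tested macrophage and leukocyte markers had negative differences here, with none called, and their part in the result was not tested.

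Over the 6 CDKO and 4 WT arrays regardless of dose, 7 of 29 members (24.1%) had every CDKO array above every WT array, against 4.46% of all genes, and none had every CDKO array below, against 2.94%. These 7 were Ccng1, Tnfrsf10b, Eda2r, Ei24, Apaf1, Polk and Zmat3. Eda2r, a receptor for an ectodysplasin, ran from 9.12 through a median of 9.67 to 10.00 in CDKO arrays and read 8.41, 8.51, 8.48 and 8.58 in WT arrays. Polk, a polymerase that copies past damaged bases, ran from 9.02 through 9.34 to 9.54 in CDKO and from 8.49 to 8.66 in WT arrays. In both genes the gap between the lines was wider than the spread of the WT arrays. The gaps were narrower for the next 3 genes. Ei24, a protein of the endoplasmic reticulum linked to cell death, had a lowest CDKO value of 11.42 and a highest WT value of 11.25. Zmat3, an RNA-binding zinc finger protein, had 10.83 and 10.74. Ccng1, a G-type cyclin that is a long-known p53 target, had 14.32 and 14.30. The description holds for the chosen probe sets: 4 of the 7 genes had another tested probe set, and in none of these 4 did it also part the lines, while 3 genes had 1 tested probe set. By group means, 13 of 29 members (44.8%) had all 3 CDKO means above both WT means, against 14.2% of all genes, and 1, Btg2, had all below, against 11.9%.

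In WT cells, 5 µM of the drug was followed by 1 call among the 29 members, Ddit4, which was higher. That share, 3.45%, is next to the 3.46% of all genes called higher, and 4.73% of all genes were called lower. The median difference of the members was 0.29, against -0.09 over all genes, with 20 positive differences. The nearest to the threshold were Perp, a membrane protein needed for desmosomes and linked to cell death (1.22 ± 0.31, SE, adjusted p = 0.0515), and Apaf1 (-0.65 ± 0.18, adjusted p = 0.0647). In the same comparison 7 of 9 mitosis genes were called lower, with a median of -2.41. Among the marker lists 2 of 4 epithelial genes (median -2.49), 1 of 3 adipocyte genes and 1 of 13 fibroblast genes were called lower, and of the 3 skeletal muscle genes 2 were lower and 1 higher (median -3.27). The 18S control read 11.6 and 11.2 untreated and 6.16 and 5.98 with drug. Their part in the result was not tested. With the 18S control as a covariate none of the members was called, though that fit can hardly separate the control from the untreated WT group. In contrast, 20 were called with array weights and 16 with the WT arrays fitted alone, settings that called 60.2% and 54.7% of all probe sets. Leaving out 1 array gave 0 calls for each WT array, 2 for each untreated or 5 µM CDKO array and 4 for either CDKO array at 1 µM. This comparison and the comparison of untreated lines share the untreated WT arrays.

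Within the CDKO line none of the 29 members was called at any dose. The shares of all genes called are at an adjusted p under 0.05. No share of all genes was counted at an unadjusted p under 0.05, so the member counts at that looser threshold have none to stand beside. For 5 µM against untreated cells 0.141% of all genes were called, and 3 members had an unadjusted p under 0.05. These were Fas (-0.82 ± 0.26, adjusted p = 0.36), Plk3, a polo-like kinase (0.94 ± 0.35, adjusted p = 0.465), and Tnfrsf10b, a receptor for the death ligand TRAIL (0.93 ± 0.36, adjusted p = 0.489). For 1 µM against untreated cells the share of all genes called was 0%, and 1 member had an unadjusted p under 0.05. The 3 smallest p-values belonged to Trp53inp1 (-0.70 ± 0.28), Epha2, an ephrin receptor kinase (0.94 ± 0.44), and Aen, a nuclease active in cell death (0.47 ± 0.22), each with adjusted p = 0.887. For 5 µM against 1 µM 0.16% of all genes were called, and 3 members had an unadjusted p under 0.05, namely Plk3 (1.03 ± 0.35, adjusted p = 0.307), Rrm2b, a subunit of ribonucleotide reductase (0.63 ± 0.24, adjusted p = 0.35), and Aen (-0.52 ± 0.22, adjusted p = 0.385). The member medians of these 3 comparisons were -0.05, -0.09 and -0.02, against -0.01, 0.00 and -0.02 over all genes. With 2 arrays a group and the wide CDKO spread, these misses do not show that levels were alike.

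The comparison that the series design sets out, treated CDKO cells of both doses against the 3 control groups, gave 2 calls among the 29 members, both higher, where 1.13% of all genes were called higher and 1.3% lower. They were Tnfrsf10b (1.23 ± 0.23, adjusted p = 0.0352) and Apaf1 (0.55 ± 0.12, adjusted p = 0.0475). The median difference was 0.28 over the members and 0.02 over all genes, with 21 positive. The control side of this comparison holds 4 WT arrays, and both genes parted the lines in untreated and treated cells alike. With line as a term Tnfrsf10b stood at 0.61 ± 0.35 (adjusted p = 1), Apaf1 turned to -0.10 ± 0.25 (adjusted p = 1), the median became -0.04, and none of the members was called. Leaving out untreated CDKO replicate 2 gave 5 calls, leaving out replicate 1 of CDKO at 5 µM gave 1, and each of the other 8 arrays left out gave 0. All 13 tested macrophage and leukocyte markers had negative differences in this comparison, 2 of them called lower. So had all 9 mitosis genes (-1.34 to -0.56), none of them called, and 2 of 4 epithelial, 2 of 3 skeletal muscle and 2 of 3 adipocyte markers were called lower. Their part in the result was not tested.

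The difference between the lines in their response to 5 µM was tested directly, and none of the 29 members was called, against 0.301% of all genes. An unadjusted p under 0.05, a threshold at which no share of all genes was counted, was found for 4 members. The member median was -0.21, against 0.09 over all genes. Fas had the smallest p. It was lower at 5 µM than without drug in both CDKO arrays and higher in both WT arrays, a difference in response of -1.68 ± 0.37 (adjusted p = 0.148). Dcxr, a reductase of sugars and dicarbonyls, gave -1.69 ± 0.63 (adjusted p = 0.343) and Perp -1.21 ± 0.44 (adjusted p = 0.334).

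**Figure D2:**
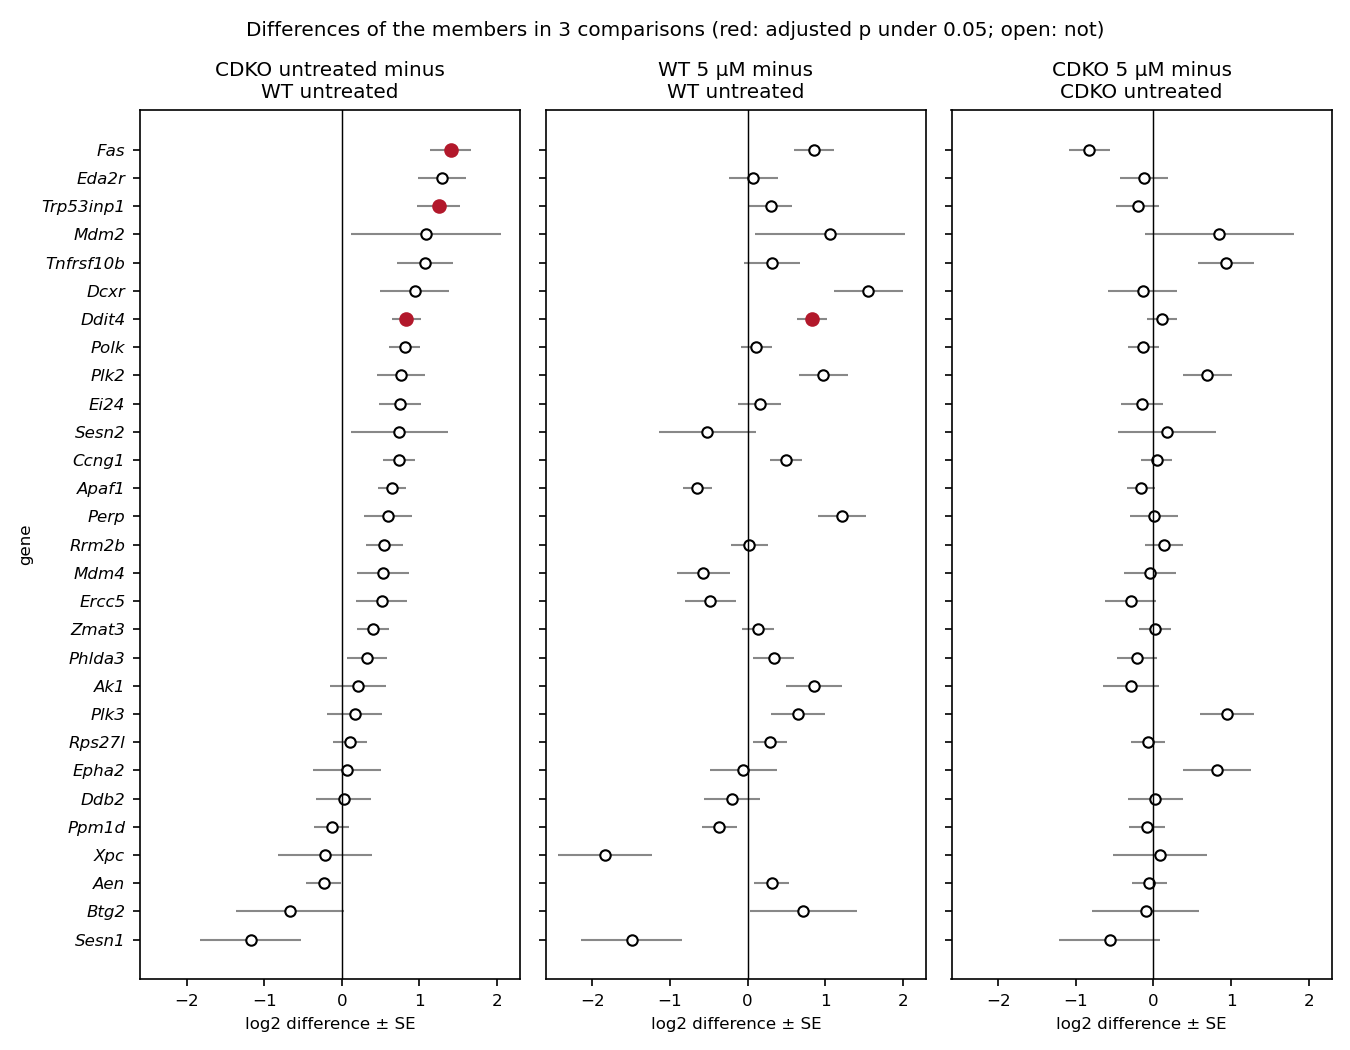
Log2 difference of each of the 29 members (points, with SE from limma as bars) between untreated lines, between WT cells at 5 µM and untreated, and between CDKO cells at 5 µM and untreated, ordered by the first panel. Red points passed an adjusted p under 0.05. There are 3 in the first panel, 1 in the second and none in the last.

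Among the regulators of p53, none of the 3 genes tested passed in any of the 8 comparisons. Mdm2 (Entrez gene 17246) read 10.36 and 12.38 in untreated CDKO cells, 12.40 and 9.39 at 1 µM and 12.13 and 12.32 at 5 µM. In WT cells it read 10.10 and 10.48 untreated and 11.33 and 11.38 at 5 µM. The replicates of untreated and 1 µM CDKO cells therefore lay farther apart than any group means, and the difference between untreated lines was 1.08 ± 0.96 (adjusted p = 0.537). A second Mdm2 probe set scattered less and gave 1.88 ± 0.46 between untreated lines (adjusted p = 0.0549) and 1.52 ± 0.46 for WT cells at 5 µM (adjusted p = 0.0759). Mdm4, a relative of Mdm2 that blocks transactivation by p53, differed by 0.53 ± 0.34 between untreated lines and by 1.06 ± 0.34 at 5 µM (adjusted p = 0.19). Its chosen probe set overlapped between the lines. A second, fainter Mdm4 probe set did not, at 5.22 to 6.35 in CDKO and 4.82 to 4.90 in WT arrays. Ppm1d, a phosphatase that returns p53 and its kinases to the resting state, ran from 6.87 to 7.60 in CDKO and from 7.29 to 7.82 in WT arrays, which overlap.

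Of the 4 cell cycle genes none passed in any comparison. All 4 had positive differences for WT cells at 5 µM, the largest that of Plk2, a polo-like kinase, at 0.98 ± 0.31 (adjusted p = 0.0885). Plk2 read 11.29 and 11.00 in untreated and 12.07 and 12.16 in treated WT cells, and from 11.45 to 12.73 in CDKO cells. Ccng1 stood near the top of the scale, from 14.32 to 14.70 in CDKO arrays and from 13.74 to 14.30 in WT arrays. The untreated lines differed in it by 0.74 ± 0.21 (adjusted p = 0.0805). Btg2, a cofactor of mRNA deadenylation that slows proliferation, was the member with the lowest CDKO values relative to WT, from 7.78 to 10.10 against 10.05 to 10.90. At 5 µM the lines differed by -1.48 ± 0.69 (adjusted p = 0.367). A second Btg2 probe set gave 0.51 ± 0.62, the opposite sign.

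Of the 9 cell death genes, the largest of the roles, 4 passed in at least 1 comparison, among 5 such members in all. The share of all genes that passed in any of the 8 comparisons was not counted. Fas (Entrez gene 14102) read 9.42 and 8.84 in untreated CDKO cells, 8.70 and 8.69 at 1 µM, and 8.52 and 8.09 at 5 µM. In WT cells it read 7.69 and 7.77 untreated and 8.48 and 8.68 at 5 µM. The untreated lines did not overlap, and CDKO was 1.40 ± 0.26 higher (2.64-fold, adjusted p = 0.0248). At 5 µM the lines overlapped (-0.28 ± 0.26, adjusted p = 0.702). Every treated CDKO array lay below both untreated CDKO arrays, though neither dose passed the test.

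Tnfrsf10b (Entrez gene 21933) was the faintest of the called genes. It read 5.19 and 5.75 in untreated CDKO cells, 5.57 and 5.95 at 1 µM, 6.03 and 6.77 at 5 µM, and 4.48, 4.30, 4.36 and 5.05 in the WT arrays in the order untreated then treated. The treated CDKO arrays overlapped with the controls through untreated CDKO replicate 2. Its second probe set had the same sign for treated CDKO cells against the controls, at 1.35 ± 0.58 (adjusted p = 0.26).

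Apaf1 (Entrez gene 11783) was nearly flat within the CDKO line, at 9.75 and 9.88 untreated, 9.75 and 9.81 at 1 µM, and 9.61 and 9.71 at 5 µM. In WT cells it read 9.19 and 9.14 untreated and 8.60 and 8.44 at 5 µM. At 5 µM the lines therefore stood 1.14 ± 0.18 apart (2.2-fold, adjusted p = 0.031), and untreated they stood 0.65 ± 0.18 apart (adjusted p = 0.0807). A second probe set gave 1.85 ± 0.75 at 5 µM (adjusted p = 0.292), but 0.98 ± 0.75 for treated against untreated WT cells, opposite in sign to the first.

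Trp53inp1 (Entrez gene 60599) read 12.08 and 12.07 in untreated CDKO cells, 11.77 and 10.99 at 1 µM and 11.77 and 11.99 at 5 µM, against 10.94 and 10.71 in untreated and 11.09 and 11.16 in treated WT cells. CDKO replicate 2 at 1 µM, 1 of the 3 arrays with the raised 18S control, was the only CDKO array within the WT range. The untreated lines differed by 1.25 ± 0.28 (2.38-fold, adjusted p = 0.042). The second probe set gave 1.02 ± 0.70 (adjusted p = 0.412).

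The remaining cell death genes did not pass in any comparison. Eda2r came close between the untreated lines (1.29 ± 0.31, adjusted p = 0.0553). Perp read 7.43 and 7.46 in untreated and 8.59 and 8.74 in treated WT cells, and between 7.38 and 8.41 in CDKO arrays. Phlda3, an inhibitor of Akt, ran from 11.69 to 12.50 in CDKO and from 11.75 to 12.19 in WT arrays, with no order between the lines. Aen had a lower median in CDKO (10.47) than in WT arrays (10.76) with overlapping ranges.

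**Figure D3:**
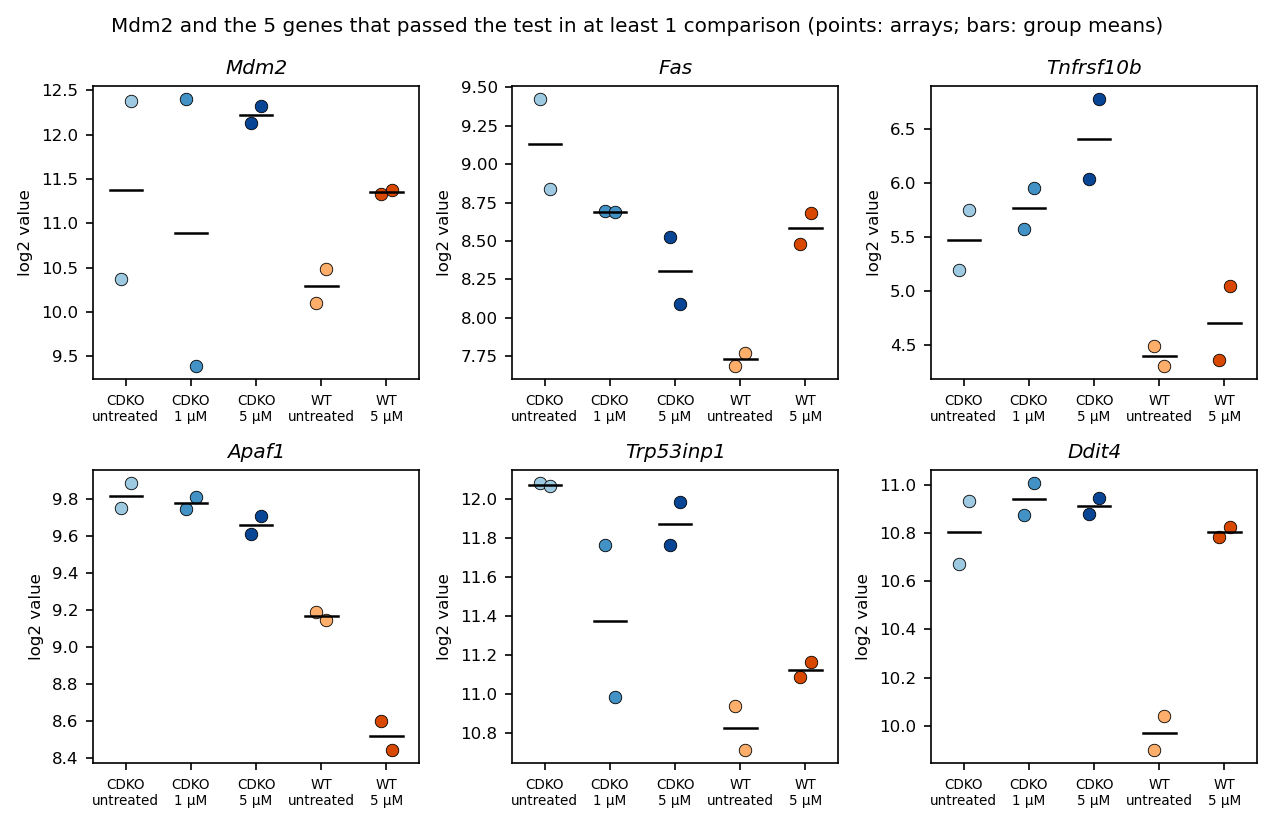
Log2 value of Mdm2 and of the 5 members that passed the test in at least 1 comparison, by group, with points for the 2 arrays and bars for group means. The untreated CDKO arrays of Fas (9.42 and 8.84) lie above, and its untreated WT arrays (7.69 and 7.77) below, every other array, and the untreated WT arrays of Ddit4 (9.90 and 10.04) lie below all others.

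Of the 5 genes of DNA repair and nucleotide supply none passed in any comparison. Polk had the largest difference between untreated lines at 0.81 ± 0.20 (adjusted p = 0.059). Rrm2b read 8.92 and 8.59 in untreated CDKO cells, 8.45 and 8.08 at 1 µM and 9.10 and 8.69 at 5 µM, while its 4 WT arrays stayed within 8.19 and 8.26. Xpc, which recognises damage for nucleotide excision repair, read 7.08 and 7.04 in untreated WT cells and 6.05 and 4.40 at 5 µM (-1.84 ± 0.61, adjusted p = 0.0934), and the low value came from a single array. Ddb2, which works with Xpc in damage recognition, ran from 5.06 to 6.24 in CDKO and from 5.38 to 5.64 in WT arrays. Ercc5, the endonuclease that cuts on the 3′ side of the lesion, ran from 7.91 to 8.83 and from 7.26 to 8.01.

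Of the 8 genes of growth, metabolism and other functions only Ddit4 passed. Ddit4 (Entrez gene 74747) read 9.90 and 10.04 in untreated WT cells and 10.78 and 10.82 at 5 µM. All CDKO arrays lay between 10.67 and 11.01, with 10.67 and 10.93 untreated, 10.87 and 11.01 at 1 µM and 10.88 and 10.95 at 5 µM. The untreated WT arrays thus stood alone below the other 8. The difference was 0.83 ± 0.19 both for treated against untreated WT cells (adjusted p = 0.0399) and for untreated CDKO against untreated WT cells (adjusted p = 0.0463), each 1.78-fold, and both rest on the same untreated WT arrays.

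The sestrins, stress proteins that restrain mTOR signalling, had differences of opposite sign between the lines. Sesn1 read 9.06 and 9.12 in untreated WT cells, 7.46 and 7.73 in treated WT cells and 6.91 to 8.87 in CDKO arrays. The lines differed in it by -1.17 ± 0.65 untreated (adjusted p = 0.312) and by only -0.245 ± 0.65 at 5 µM (adjusted p = 0.926). Sesn2 ran from 6.90 through a median of 8.52 to 8.80 in CDKO and from 6.49 to 7.27 in WT arrays. The lines differed in it by 0.74 ± 0.63 untreated (adjusted p = 0.512) and by 1.43 ± 0.63 at 5 µM (adjusted p = 0.333). Neither passed. Dcxr read 9.62 and 9.46 in untreated and 11.06 and 11.13 in treated WT cells (1.56 ± 0.44, adjusted p = 0.0672), and 9.96 to 11.20 in CDKO arrays. Ak1, an adenylate kinase, read 11.85 and 11.78 and then 12.65 and 12.69 in the same WT groups (0.85 ± 0.36, adjusted p = 0.158). Rps27l, a ribosomal protein paralog, read between 14.20 and 14.62 in all 10 arrays, and its probe set is of a type that can share probes with near-identical transcripts. Epha2 ran from 6.56 to 8.37 in CDKO and from 7.07 to 7.32 in WT arrays.

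Different probe sets of the same member gave different pictures, along the 18S control. Of the 50 tested probe sets of the members, 10 (20%) had their 3 lowest values in the 3 arrays with raised 18S, against 12.3% of all probe sets. None had its 3 highest values there, against 10.8%. Among the 29 chosen probe sets 2 (6.9%) did so, those of Perp and Trp53inp1, against 8.05% of genes. The 10 probe sets belonged to 8 members. A second Rrm2b probe set averaged 2.75 in the 3 arrays and 6.78 in the other 7, and a second Polk probe set averaged 3.48 and 6.71. The remaining Rrm2b probe sets went the other way by less, with averages of 5.21 and 4.83 for 1 and of 3.93 and 3.46 for the other. For WT cells at 5 µM the second Rrm2b probe set gave 3.42 ± 1.15 (adjusted p = 0.0968), where the chosen one gave 0.02 ± 0.24 (adjusted p = 0.965). For Polk the pair was 2.72 ± 0.93 (adjusted p = 0.102) and 0.11 ± 0.20 (adjusted p = 0.747), and for Ccng1 2.18 ± 0.69 (adjusted p = 0.0838) and 0.50 ± 0.20 (adjusted p = 0.153). The fourth Aen probe set by level was the only probe set not chosen that passed in any of the 8 comparisons. In this one 3.51% of all probe sets were called higher. It was 2.14 ± 0.31 higher with drug (adjusted p = 0.0113), with group means of 4.42 at 5 µM and 2.29 untreated, so it rose from under the filter level of 4, where a difference is measured against background. The chosen Aen probe set gave 0.31 ± 0.22 (adjusted p = 0.385).

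**Figure D4:**
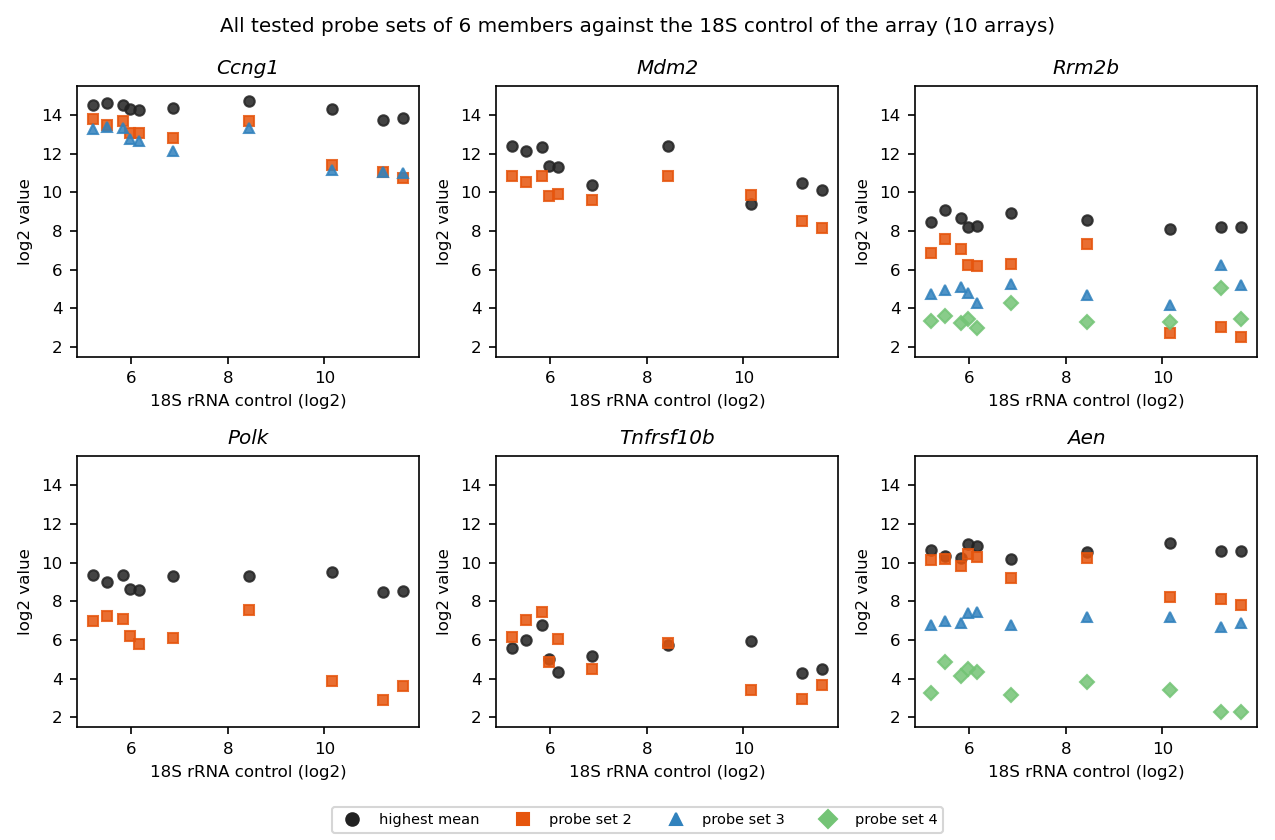
Log2 value of every tested probe set of 6 members against the 18S ribosomal RNA control of the same array (log2, 10 arrays), with the chosen probe set of the highest mean in black and others in colour. In the 3 arrays at the right, with 18S above 10, the second probe sets of Rrm2b and Polk average 2.75 and 3.48, against 6.78 and 6.71 in the other 7, while the chosen ones average 8.16 and 8.86, against 8.60 and 9.09.

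Other genes of the pathway were taken from lists of upstream regulators and of further targets. Of 16 tested regulators, 2 were higher and 2 lower in WT cells at 5 µM than without drug, where 3.46% and 4.73% of all genes were called. Without drug 2 were higher in CDKO than in WT cells (1.94% of all genes). At 5 µM 1 was higher in CDKO than in WT cells (0.866%), and 1 was higher in treated CDKO cells than in the controls (1.13%). Cdkn2a, whose product p19Arf blocks Mdm2 and whose other product inhibits cyclin-dependent kinases, passed in all 4. It read 3.45 and 3.78 in untreated WT cells, 6.74 and 6.87 in treated WT cells and 8.34 to 10.73 in CDKO cells, so its untreated WT level was under 4. The CDKO group means were 8.71 untreated, 8.81 at 1 µM and 10.06 at 5 µM. Neither dose passed against untreated CDKO cells (adjusted p = 0.996 at 1 µM and 0.437 at 5 µM). The call for treated CDKO cells thus rests largely on the low WT arrays among the controls. The lines at 5 µM differed by 3.25 ± 0.48 (adjusted p = 0.0243). The untreated lines were fitted 5.09 ± 0.48 apart (adjusted p = 0.00247), a value measured against background that is no ratio of transcript amounts. Rchy1, a ubiquitin ligase for p53, was higher in untreated CDKO cells (1.04 ± 0.23, adjusted p = 0.0422) and in treated WT cells (0.93 ± 0.23, adjusted p = 0.0497) than in untreated WT cells. The acetyltransferases Ep300 and Crebbp were lower in WT cells at 5 µM, with differences of -1.26 ± 0.28 (adjusted p = 0.037) and -1.28 ± 0.18 (adjusted p = 0.0101).

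Of 25 tested further targets 3 were higher in CDKO than in WT cells without drug (1.94% of all genes), 3 were higher in WT cells at 5 µM than without drug (3.46%), 1 was higher in treated CDKO cells than in the controls (1.13%), and none was lower in any of the 8 comparisons. Cdkn1a, the cyclin-dependent kinase inhibitor p21, read 13.32 and 13.74 in untreated CDKO and 12.49 and 12.42 in untreated WT cells (1.08 ± 0.24, adjusted p = 0.044). In treated WT cells it read 13.09 and 13.08 (0.63 ± 0.24, adjusted p = 0.131). Pmaip1, the BH3-only protein Noxa, differed by 2.75 ± 0.50 between the untreated lines (adjusted p = 0.0226) and by 2.07 ± 0.50 for WT cells at 5 µM against untreated (adjusted p = 0.0452), higher in CDKO and with drug. Rprm, an inhibitor of cell cycle progression, gave 1.99 ± 0.27 (adjusted p = 0.00926) and 1.33 ± 0.27 (adjusted p = 0.0304) in the same comparisons. Bid, a BH3-only protein cut by caspases, was called higher in treated against untreated WT cells (1.22 ± 0.25, adjusted p = 0.029). In CDKO cells at 5 µM against untreated its difference was 0.71 ± 0.25 (adjusted p = 0.426), and the difference between these responses did not pass (-0.51 ± 0.35, adjusted p = 0.586). Within the CDKO line none of the tested regulators or further targets was called at any dose by limma. An unadjusted p under 0.05 was found for 1 of each list at 5 µM against untreated and for 0 at 1 µM. Between the doses it was found for 2 regulators and 3 further targets. No share of all genes was counted at that threshold.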

How the data were processed

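Total RNA was extracted with Trizol and hybridised to 10 Affymetrix arrays. The values are log2 values deposited by the authors, computed by GCRMA according to the submitters' processing notes, with no version or filter given. The log2 scale was read from the values (1.09 to 16.0).

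From 45101 probe sets 64 controls were removed, and the 20681 reaching a mean of 4 in some group went into limma 3.58.1 in R 4.3.3 (lmFit and eBayes on 5 group means, all arrays sharing 1 spread, 5 residual degrees of freedom). P-values were adjusted over all of these by Benjamini-Hochberg, threshold 0.05. Probe sets were named from GEO's platform table and updated to RefSeq: 34958 had 1 symbol (34754 matched), 932 several and 9211 none. Spread was pooled although CDKO replicates scattered more. The number of arrays limits the precision. The fit was tested on simulated data for CDKO cells at 5 µM against untreated, with the pooled spread of each probe set. It recovered 8 of 50 changes of 1 log2 unit (16%) and 26 of 50 changes of 2 (52%), so it missed most changes of 1. That spread was pooled over all 5 groups. Median SDs over probe sets were 0.31 and 0.29 in untreated and 5 µM CDKO cells, but 0.10 and 0.07 in WT cells. The simulated spread was thus narrower than that of CDKO cells, and the recovery is likely too favourable for them. Of 117 calls 6 were false. Errors are SE.

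The members and lists were chosen with earlier results of these data known. Per comparison, the text names members that passed, or the 3 with the smallest p, and up to 4 other pathway genes that passed, with Mdm2, Cdkn1a and Cdkn2a always; further members stand as descriptions. Marker lists covered mitosis, adipocytes, skeletal muscle, epithelium, endothelium, leukocytes with macrophages, and fibroblasts. Adipocyte markers were called lower for 2 of 3 in untreated CDKO against untreated WT cells. Replicate numbers were not taken to pair the arrays, since correlations of replicate differences between groups ran from -0.45 to 0.43. The 0.43 is that of untreated and 5 µM CDKO cells, whose equal numbers also share a spike-in class. The -0.45 is that of untreated and 1 µM CDKO cells, whose replicate differences tended to opposite signs. Untreated replicate 2 and 1 µM replicate 1 read 12.38 and 12.40 for Mdm2 and 6.96 and 6.91 for Sesn1. Untreated replicate 1 and 1 µM replicate 2 read 10.36 and 9.39 for Mdm2 and 8.87 and 8.31 for Sesn1. The cause was not tested. Alternatives changed the filter, prior, scaling, probe set rule, array weights, blocks, model and arrays used.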

Additional observations from a re-analysis of the deposited data

How the results depend on the processing

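Counts of p53 pathway genes called moved with the processing wherever any was called, and stayed at 0 in every alternative run for the 3 comparisons within CDKO and for the difference between lines. For treated CDKO cells against controls (2 called) the count was 1 with no filter, a filter of 6, quantile normalization, 1 probe set per gene or the replicate block, and 0 with array weights, a block for spike-in class, the mean over probe sets, 2 groups of 4 and 6 arrays, line as a term, no untreated WT arrays, or the 18S covariate. For WT at 5 µM against untreated (1 called) it was 2 with no filter, centred arrays or 1 probe set per gene, 3 with the mean over probe sets, 5 with the spike-in block, 16 with the compared groups alone, 20 with array weights, and 0 with the replicate block or the 18S covariate. Array weights called 60.2% and the compared groups alone 54.7% of all probe sets there. For the untreated lines (3 called) it was 5 with array weights, 1 with the replicate block and 0 with the compared groups alone or the 18S covariate. For the lines at 5 µM (1 called) it was 0 with the replicate block, the mean over probe sets or the compared groups alone. Leaving out 1 array gave 0 to 5, 0 to 4, 0 to 7 and 0 to 2 calls in these 4 comparisons. Signs turned for Apaf1 with line as a term (-0.10) and for Aen with the mean over probe sets, at 1 µM against untreated (-0.056) and 5 µM against 1 µM (0.36); the cause was not tested. The replicate block and a crossed pairing of untreated and 1 µM CDKO arrays, which called 0 members, rest on numbers that no label ties to a shared culture or day. Untreated and 5 µM CDKO arrays of equal number share a spike-in class, and there both that block and the replicate block called 0. The crossed block and the 18S covariate were chosen after seeing the data. The 18S covariate can hardly be separated from the untreated WT group, so calls lost with it decide nothing there. Probe sets near 4 are close to background, which limits what a difference there can show.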
